A study of Homo sapiens with 24 samples.

Results

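The mitosis genes are a list of 42 genes for the machinery that divides the chromosomes and the cell: cyclins and regulators of CDK1, checkpoint proteins and mitotic kinases, separase and its control, kinesins and spindle proteins, kinetochore and centromere proteins, cytokinesis proteins, chromosome structure proteins and the transcription factors FOXM1 and MYBL2. Members were found by their gene symbol in the platform annotation, genes of the chromosomal passenger complex were left out, and the brightest detected probe stood for each gene. The array named 20042 genes, 13789 passed the filter on dim probes, and 41 of the 42 members were among them. The member that did not pass was NCAPH, a condensin subunit, whose probe was detected on 1 of 24 arrays. Of the other 41 members, 40 were detected on all 24 arrays, and MYBL2 on 16.

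The study asked what EZH2 does to gene expression in prostate cancer cells, by lowering its mRNA or by blocking its enzyme. EZH2 is the histone methyltransferase of Polycomb repressive complex 2. The cells were 2 established lines, LNCaP, from a lymph node metastasis of prostate cancer, and C4-2B, a castration-resistant derivative of LNCaP. Each of 8 groups had 3 arrays, 1 array per RNA sample. The groups in each line were cells transfected with an EZH2 siRNA (siEZH2, marked CDS in the labels) or with a control siRNA (siControl), and cells given 1 µM EPZ6438, an inhibitor of the enzyme, or DMSO, its vehicle. All 8 groups shared the medium, RPMI with fetal bovine serum, and the treatment time of 3 days. A single EZH2 siRNA is named, and the labels number the replicates without saying whether they were separate cultures, so a p-value here reflects array-to-array spread that could be purely technical.

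Mitosis genes are expressed in waves. Most are held off by the DREAM complex outside the cycle and are switched on late in the cycle by MYB proteins with the MuvB core and by FOXM1, through promoter elements called CHR (cell cycle genes homology region) and CCAAT boxes. Cyclin B with CDK1 drives entry into mitosis, the spindle checkpoint holds the cell until every kinetochore is attached to microtubules, and the anaphase-promoting complex then has cyclin B and securin destroyed so that separase can part the chromatids. In prostate cancer, high levels of these transcripts are known as a marker of proliferation.

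EZH2 itself was measured first, as the check of the siRNA. All values below are log2 of background-corrected, quantile-normalised probe intensities, and a level of one gene is not compared with that of another. In C4-2B, EZH2 read 6.16, 6.81 and 6.47 with siEZH2, against 7.53, 7.20 and 7.72 with siControl (difference −1.01 ± 0.16 SE, limma adjusted p = 6.87e-05, n = 3 each). In LNCaP it read 5.71, 5.86 and 5.90 with siEZH2, against 6.68, 6.69 and 6.69 with siControl (−0.86 ± 0.16, limma adjusted p = 0.000176). The groups did not overlap in either line, but with median centring of the arrays the differences were −0.69 in C4-2B and −0.64 in LNCaP and missed the threshold (limma adjusted p = 0.0533 and 0.0536). Median centring here and below used all 47311 probes, most of them not detected on a given array. In each line the EZH2 call was lost in this 1 of 16 other fits. With EPZ6438, the EZH2 difference was −0.00 ± 0.16 in C4-2B and −0.12 ± 0.16 in LNCaP, and neither passed the test (limma adjusted p = 0.997 and 0.737). EZH2's dimmest kept probe read −0.55 ± 0.21 in C4-2B and −0.57 ± 0.21 in LNCaP with EPZ6438, without passing either (limma adjusted p = 0.112 and 0.147 over all probes), and its remaining kept probe read 0.02 and −0.26. The share of the 47311 probes that was detected ran from 40.8% to 45.8% over the arrays, and with arrays the number of arrays limits the precision. Of 8 luminal prostate markers, the 6 with a named probe (KLK3, KLK2, TMPRSS2, HOXB13, KRT8 and KRT18) were detected on all 24 arrays, while the basal keratins KRT5 and KRT14 were detected on 0. Of the fibroblast markers, LUM was detected on 0 arrays, DCN on up to 3, COL1A2 on 4, PDGFRB on 7 and COL1A1 on 21. Of the blood markers, PTPRC was detected on 0, CD3E on 1, CD14 on 20 and CD68 on 24, and of the endothelial markers, CDH5 on 0, PECAM1 on 1 and VWF on 24. The 6 C4-2B siRNA arrays stood apart in their luminal markers: the mean log2 level of the 6 genes was 6.99 to 7.12 with siEZH2 and 7.14 to 7.31 with siControl, against 8.16 to 9.19 in the 6 other groups. The identity of that culture was not tested, and its arrays are called C4-2B as labelled throughout.

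Promoters are shown because most members carry the same pair of elements. RefSeq windows of 300 bases on GRCh38.p14, from 250 bases before to 50 after the start, were found for 35 of the 42 members. A CHR (TTTGAA or TTTAAA, read on both strands) lay in 31 of the 35 windows (88.6%), against 24.3% of 27303 windows over all genes. The form TTTGAA was in 71.4% of the members' windows and 15.4% of all windows, and TTTAAA in 40.0% and 12.4%. A CCAAT box (CCAAT, both strands) was in 74.3% of the members' windows and 35.7% of all, and both elements were in 68.6% and 9.49%. At least 2 CHR matches were in 48.6% of the members' windows and 6.31% of all. An E2F site, searched as TTT, then G or C at each of 2 positions, then CGC, on both strands, was in 3 of the 35 windows (8.57%) and 3.33% of all. None of these motifs can lie within another, though a CHR and a CCAAT box can share an end letter. The windows of CCNA2, CDC25C, BUB1 and MYBL2 held no CHR match, which says only that these letters are not in that window. Windows of 6 of the members whose arrays are given in full follow, all on the plus strand, with CHR and CCAAT matches in capitals: CENPF at chr1:214602945-214603244, CENPA at chr2:26785806-26786105, CCNB2 at chr15:59104896-59105195, CCNB1 at chr5:69166900-69167199, KIF2C at chr1:44739587-44739886 and CDKN3 at chr14:54396757-54397056.
CENPF: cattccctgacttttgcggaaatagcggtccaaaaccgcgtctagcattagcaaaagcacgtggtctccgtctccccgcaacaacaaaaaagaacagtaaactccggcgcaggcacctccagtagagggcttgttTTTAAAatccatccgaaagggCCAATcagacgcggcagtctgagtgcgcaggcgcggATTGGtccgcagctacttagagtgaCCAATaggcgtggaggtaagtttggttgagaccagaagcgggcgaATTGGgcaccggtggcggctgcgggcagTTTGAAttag
CENPA: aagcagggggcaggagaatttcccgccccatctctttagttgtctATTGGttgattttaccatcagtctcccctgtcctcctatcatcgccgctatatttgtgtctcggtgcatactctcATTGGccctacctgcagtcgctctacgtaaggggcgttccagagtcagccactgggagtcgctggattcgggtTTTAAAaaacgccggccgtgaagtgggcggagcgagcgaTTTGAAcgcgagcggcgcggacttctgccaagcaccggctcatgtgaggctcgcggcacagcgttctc
CCNB2: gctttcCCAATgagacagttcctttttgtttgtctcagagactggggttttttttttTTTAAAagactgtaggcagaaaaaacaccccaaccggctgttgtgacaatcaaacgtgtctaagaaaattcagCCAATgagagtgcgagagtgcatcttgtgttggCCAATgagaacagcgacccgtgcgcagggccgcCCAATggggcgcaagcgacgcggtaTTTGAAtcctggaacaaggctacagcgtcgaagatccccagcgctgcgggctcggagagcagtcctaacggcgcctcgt
CCNB1: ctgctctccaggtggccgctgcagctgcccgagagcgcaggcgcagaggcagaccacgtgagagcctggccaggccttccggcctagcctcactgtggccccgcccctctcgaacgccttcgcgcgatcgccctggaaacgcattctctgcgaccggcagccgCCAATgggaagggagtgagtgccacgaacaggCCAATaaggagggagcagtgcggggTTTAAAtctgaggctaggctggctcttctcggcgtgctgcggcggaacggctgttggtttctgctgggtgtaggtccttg
KIF2C: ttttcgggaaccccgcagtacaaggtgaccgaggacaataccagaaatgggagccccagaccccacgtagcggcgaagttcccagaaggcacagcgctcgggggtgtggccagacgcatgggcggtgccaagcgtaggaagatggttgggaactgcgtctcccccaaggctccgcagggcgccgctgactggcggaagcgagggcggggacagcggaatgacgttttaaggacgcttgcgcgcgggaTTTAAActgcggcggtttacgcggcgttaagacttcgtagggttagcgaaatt
CDKN3: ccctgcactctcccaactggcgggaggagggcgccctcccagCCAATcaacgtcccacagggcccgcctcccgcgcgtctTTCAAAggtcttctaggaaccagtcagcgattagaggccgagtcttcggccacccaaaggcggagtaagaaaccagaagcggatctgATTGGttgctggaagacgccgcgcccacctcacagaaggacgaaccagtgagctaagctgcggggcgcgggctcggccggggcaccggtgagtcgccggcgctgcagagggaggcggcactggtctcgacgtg
The CENPF and CCNB2 windows each held 2 CHR and 4 CCAAT matches, CENPA 2 and 2, and CCNB1 and CDKN3 each 1 CHR and 2 CCAAT. The KIF2C window held 1 CHR match and 0 CCAAT matches. A match is a run of letters and is no measurement of binding.

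Over the 41 measured members, the mean log2 level per array was 8.42 ± 0.07 with siEZH2 and 8.81 ± 0.07 with siControl in C4-2B (SD, n = 3 each). In the same line it was 7.89 ± 0.07 with EPZ6438 and 8.26 ± 0.02 with DMSO. In LNCaP it was 7.63 ± 0.03 with siEZH2 and 7.63 ± 0.03 with siControl, and 8.15 ± 0.10 with EPZ6438 and 8.46 ± 0.03 with DMSO. EPZ6438 arrays thus lay below DMSO arrays in both lines, siEZH2 arrays lay below siControl arrays in C4-2B alone, and the controls themselves stood apart. The C4-2B siControl group was the highest of the 8 for 28 of 41 members, and the lowest group was LNCaP siEZH2 for 16 members and LNCaP siControl for 18.

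**Figure D1:**
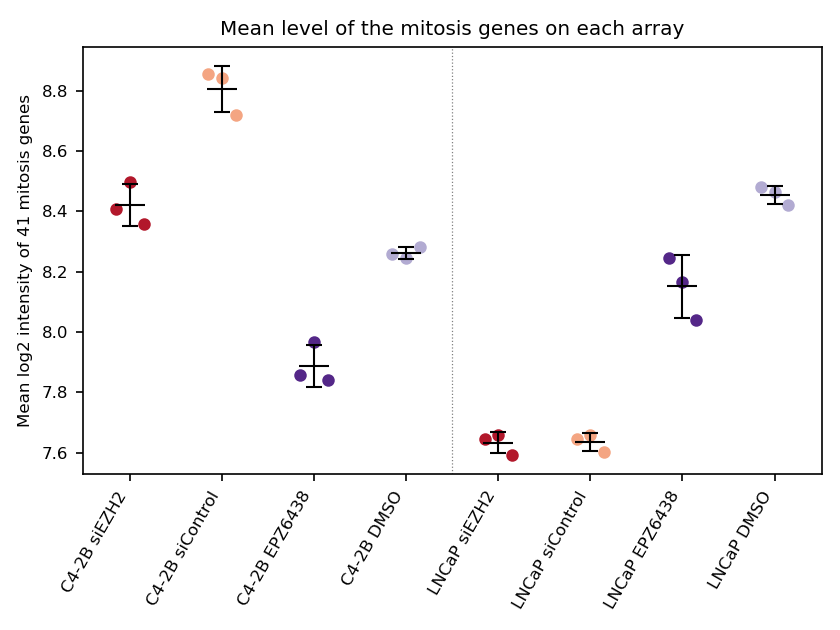
Mean log2 intensity over the 41 measured mitosis genes on each of 24 arrays, with group mean and SD (n = 3 arrays), 8 groups along the x axis. C4-2B siControl arrays sit highest (8.81 ± 0.07) and the 6 LNCaP siRNA arrays lowest (7.63 ± 0.03 in both groups).

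With siEZH2 in C4-2B, 25 of the 41 mitosis genes fell and 0 rose at a limma adjusted p under 0.05. Among all 13789 genes tested, 18.6% were called in either direction, 8.5% lower and 10.1% higher. The members' median difference was −0.36, against 0.03 over all genes. A negative difference was seen in 39 of 41 members and in 6255 of all 13789 genes. The called differences ran from −0.34 to −1.32, 9 of them at least 1.5-fold and 1 of them, CENPF, at least 2-fold. The 3 siEZH2 arrays did not overlap the 3 siControl arrays for 27 of 41 members, as for 32.6% of all genes. In RNA from whole cultures, fewer dividing cells and less of each transcript per dividing cell cannot be told apart.

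By role, the cyclins and CDK1 regulators (5 of 6 lower), the checkpoint and mitotic kinase genes (6 of 7), the kinetochore genes (6 of 7) and the cytokinesis genes ANLN and ECT2 (2 of 2) were called most often in C4-2B with siEZH2. Of the kinesins and spindle genes, 2 of 10 fell. CENPF, a kinetochore and nuclear matrix protein that peaks in G2 and mitosis, read 6.90, 7.26 and 6.89 with siEZH2, against 8.45, 8.32 and 8.26 with siControl (−1.32 ± 0.14, limma adjusted p = 3.81e-07). Every siEZH2 array lay below every siControl array. CDKN3, a phosphatase that removes the activating phosphate of cyclin-dependent kinases, read 9.42, 9.36 and 9.08 with siEZH2, against 9.94, 10.15 and 9.88 with siControl (−0.71 ± 0.14, limma adjusted p = 0.00079). SPC25, a subunit of the NDC80 complex that holds microtubules, read 6.76, 6.77 and 6.68, against 7.33, 7.79 and 7.18 (−0.70 ± 0.18, limma adjusted p = 0.00699). HMMR, a spindle assembly factor, read 9.25, 9.32 and 8.90, against 9.89, 9.98 and 9.63 (−0.68 ± 0.13, limma adjusted p = 0.000728). None of the 3 genes overlapped between the groups. Cyclins moved with them: CCNA2 fell by 0.65 ± 0.13 (limma adjusted p = 0.00114) and CCNB2 by 0.54 ± 0.09 (limma adjusted p = 0.000169), while CCNB1 had a difference of −0.26 that did not pass (limma adjusted p = 0.15). CDK1 fell by 0.61 ± 0.14 (limma adjusted p = 0.00274). CDC20, the activator of the anaphase-promoting complex, had a difference of −0.00.

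Of the 25 calls, 15 held whichever 1 array was left out and 10 (ANLN, AURKA, BUB1, CDC25C, CENPA, ECT2, NDC80, PLK1, SPC25 and TTK) were lost without at least 1 array. Without C4-2B siControl replicate 2, 16 genes fell, and SPC25 then had a difference of −0.52. Median centring of the arrays in place of quantile normalisation moved the median of all genes to 0.21 and that of the members to −0.05, and CENPF alone was still called. Centring on the detected probes called 26 lower. Another 16 kept probes belonged to 12 of the called members, and all 16 had the same sign as the probe used.

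**Figure D2:**
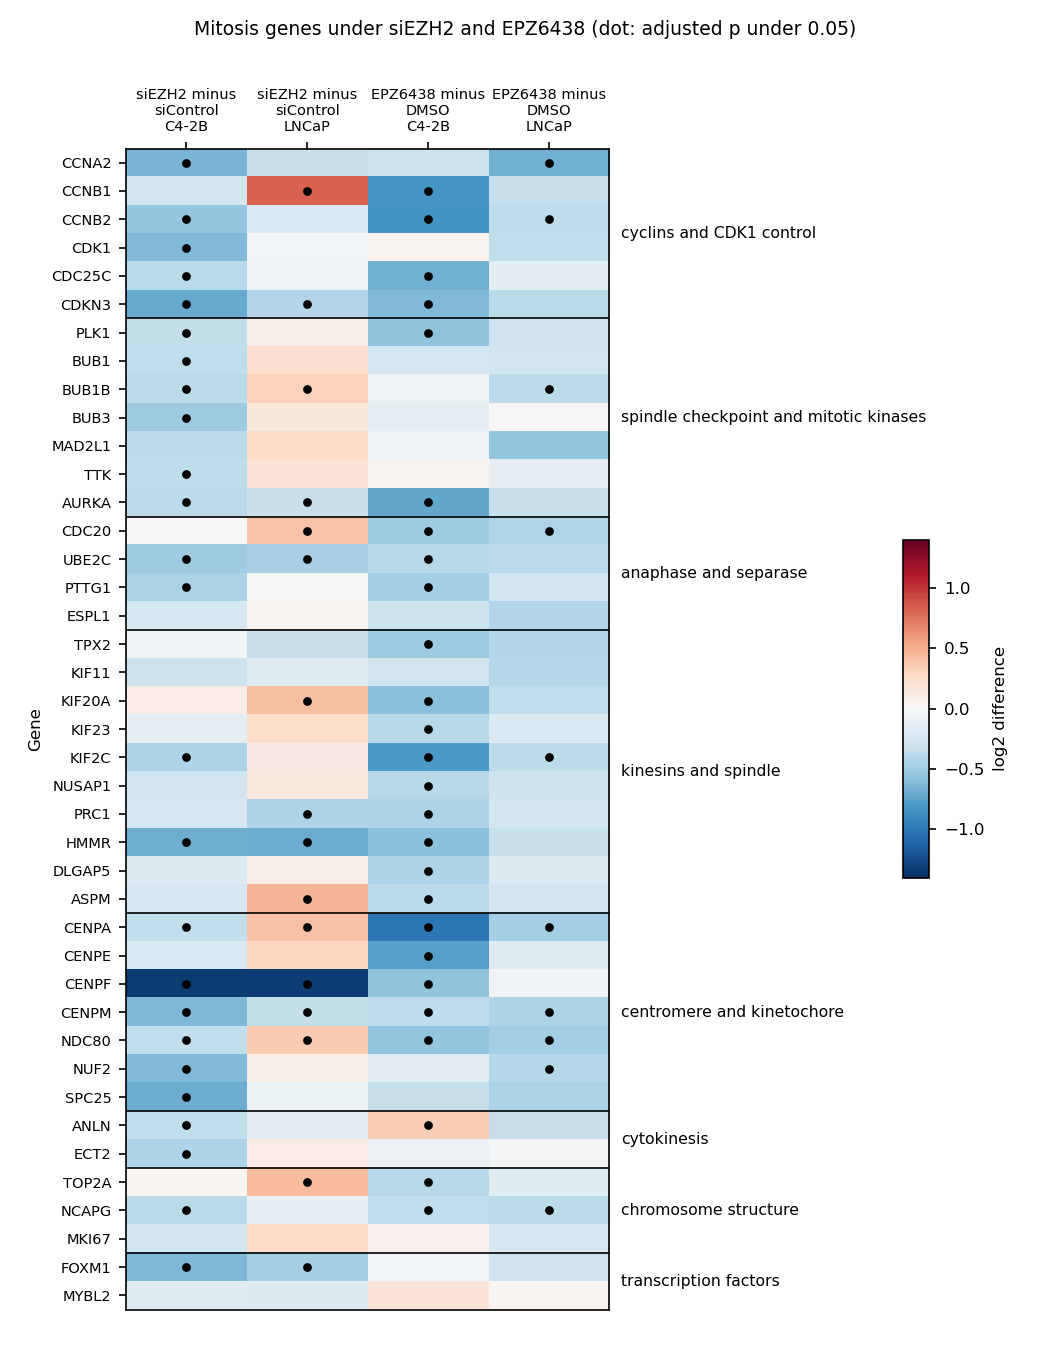
Log2 difference for each of 41 mitosis genes (rows, grouped by role) in the 4 treatment comparisons (columns: siEZH2 minus siControl and EPZ6438 minus DMSO, in C4-2B and then in LNCaP), with a dot where the limma adjusted p was under 0.05. Blue (lower) fills the C4-2B siEZH2 column (25 called lower) and both EPZ6438 columns (25 and 10), and the LNCaP siEZH2 column is mixed (8 higher, 8 lower).

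With siEZH2 in LNCaP, 8 mitosis genes rose (19.5%), 8 fell (19.5%) and 25 did not pass the test. Among all genes, 26.8% were called, 14.3% higher and 12.5% lower. The members' shares were thus not far above those of all genes, and calls in both directions do not set the members apart. The members' median difference was 0.09, against 0.02 over all genes, with 23 members positive and 18 negative (7401 and 6388 of all 13789 genes). The genes that rose were CCNB1, ASPM, TOP2A, KIF20A, CENPA, CDC20, NDC80 and BUB1B, with differences of 0.33 to 0.83. Those that fell were CENPF, HMMR, FOXM1, UBE2C, PRC1, CDKN3, CENPM and AURKA, with differences of −0.31 to −1.32. The groups did not overlap for 24 of 41 members, against 46.4% of all genes.

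CENPF read 6.31, 6.43 and 6.62 with siEZH2 in LNCaP, against 7.76, 7.81 and 7.75 with siControl (−1.32 ± 0.14, limma adjusted p = 1.26e-07). CCNB1, the cyclin that drives CDK1 into mitosis, read 8.16, 7.89 and 8.08, against 7.17, 7.34 and 7.14 (0.83 ± 0.12, limma adjusted p = 1.09e-05). Neither gene overlapped between the groups. HMMR read 8.15, 8.33 and 8.03, against 8.92, 8.96 and 8.71 (−0.69 ± 0.13, limma adjusted p = 0.00032). ASPM, a spindle pole protein, read 8.33, 8.11 and 8.32, against 7.74, 7.80 and 7.79 (0.47 ± 0.09, limma adjusted p = 0.000464). Both again separated without overlap, in opposite directions although both encode spindle proteins. UBE2C, the ubiquitin-conjugating enzyme that works with the anaphase-promoting complex, fell by 0.45 ± 0.12 (limma adjusted p = 0.00668), while CDC20, its activator, rose by 0.40 ± 0.10 (limma adjusted p = 0.00342).

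Leaving out any 1 array kept 5 of the 8 higher calls (ASPM, CCNB1, CDC20, CENPA and TOP2A) and 4 of the 8 lower calls (CENPF, HMMR, PRC1 and UBE2C). Without LNCaP siControl replicate 1, 2 or 3, or without siEZH2 replicate 1, 5 genes fell. With median centring, which moved the median of all genes to 0.18 and that of the members to 0.30, 3 members rose (ASPM, CCNB1 and CDC20) and 1 fell (CENPF), and AURKA changed sign (0.0021, limma adjusted p = 0.998). Centring on the detected probes moved the median of all genes to −0.12 and that of the members to −3.0e-05. The sign of the small members' median is thus not settled. Relative to all genes, the members' median lay 0.12 higher under both centrings and 0.07 higher in the main fit.

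**Figure D3:**
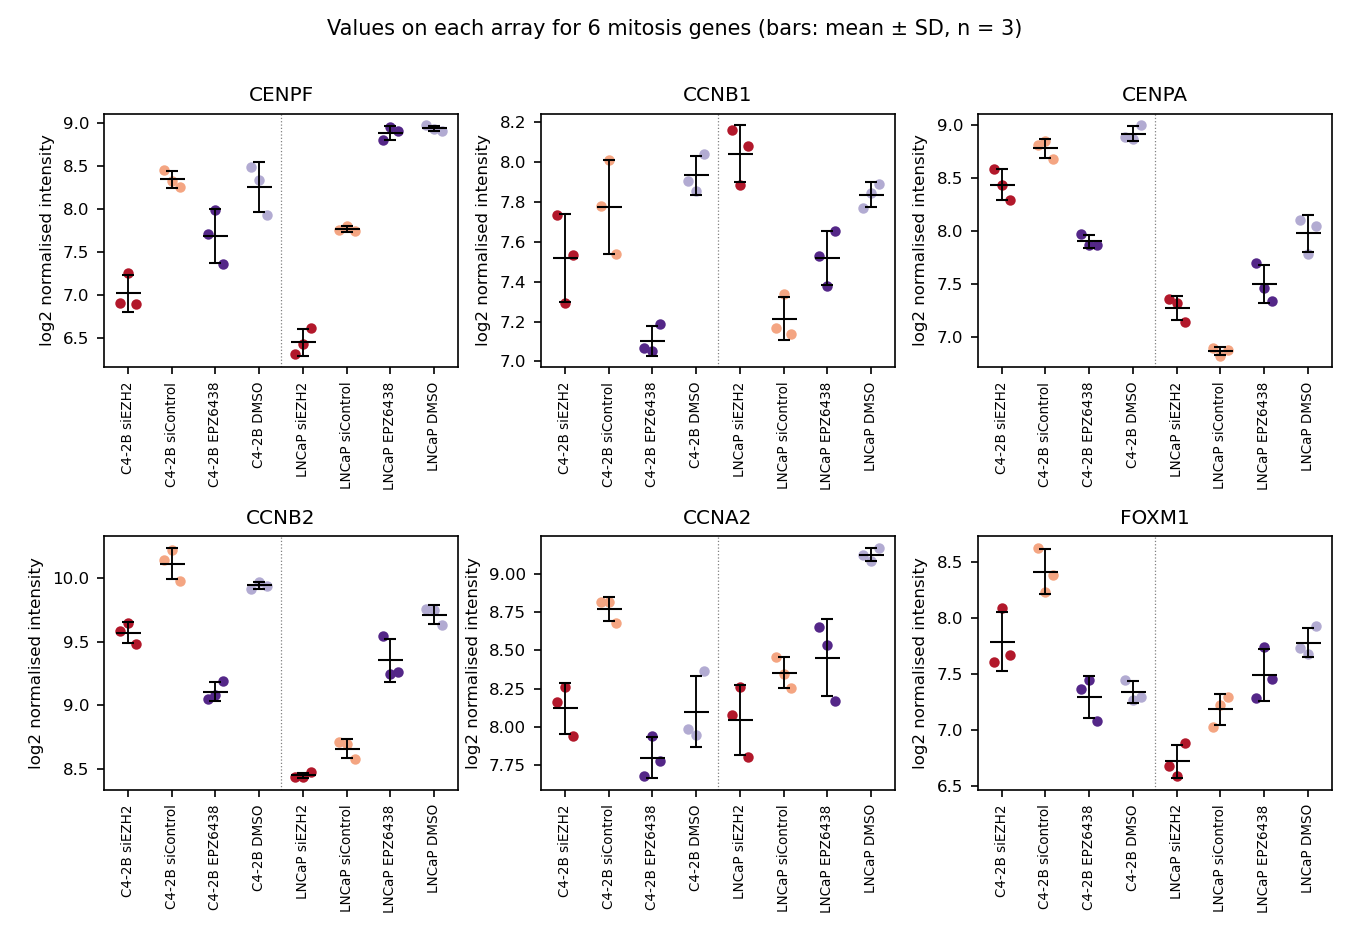
Log2 intensity of CENPF, CCNB1, CENPA, CCNB2, CCNA2 and FOXM1 on each array (points) in the 8 groups, with group mean and SD (n = 3 arrays). CENPF lies lower with siEZH2 than with siControl in both lines, and CCNB1 is higher with siEZH2 in LNCaP (8.16, 7.89 and 8.08 against 7.17, 7.34 and 7.14).

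The siEZH2 effect was then compared between the lines, C4-2B minus LNCaP. Its C4-2B side comes from the siRNA arrays whose luminal markers stood apart. The siControl groups also differed, with members' means of 8.81 in C4-2B and 7.63 in LNCaP. The part of either in this comparison was not tested. The siEZH2 effect was more negative in C4-2B for 10 members and more positive for 0, against 2.65% and 3.17% of all genes (5.82% in either direction). The members' median was −0.40, against 0.005 over all genes, and 37 of 41 members were negative (6810 of all 13789 genes). CCNB1 differed by −1.08 ± 0.17 (limma adjusted p = 0.000277), CENPA by −0.75 ± 0.15 (0.00337), NDC80 by −0.71 ± 0.15 (0.00709), NUF2 by −0.71 ± 0.16 (0.00868) and ASPM by −0.70 ± 0.13 (0.00198), all from limma. NUF2's other, dimmer kept probe did not show this: with siEZH2 it read −0.43 in C4-2B and −0.40 in LNCaP. CENPA's other kept probe read −0.28 in C4-2B and 0.12 in LNCaP. CENPA, the centromere's histone H3 variant, shows the pattern on single arrays. It read 8.59, 8.44 and 8.30 with siEZH2 in C4-2B, against 8.82, 8.86 and 8.68 with siControl, and 7.36, 7.33 and 7.15 with siEZH2 in LNCaP, against 6.90, 6.83 and 6.88 with siControl. CENPA, NDC80 and BUB1B were called lower in C4-2B and higher in LNCaP. In both lines 7 genes fell (AURKA, CDKN3, CENPF, CENPM, FOXM1, HMMR and UBE2C), which is 28% of the 25 in C4-2B and 87.5% of the 8 in LNCaP. The share of all genes that fell in both lines was not counted, so this sharing has no background beside it. The comparison between lines lost all 10 calls under median centring, where 3 members had an unadjusted p under 0.05, all lower. Centring on the detected probes called 9 lower.

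**Figure D4:**
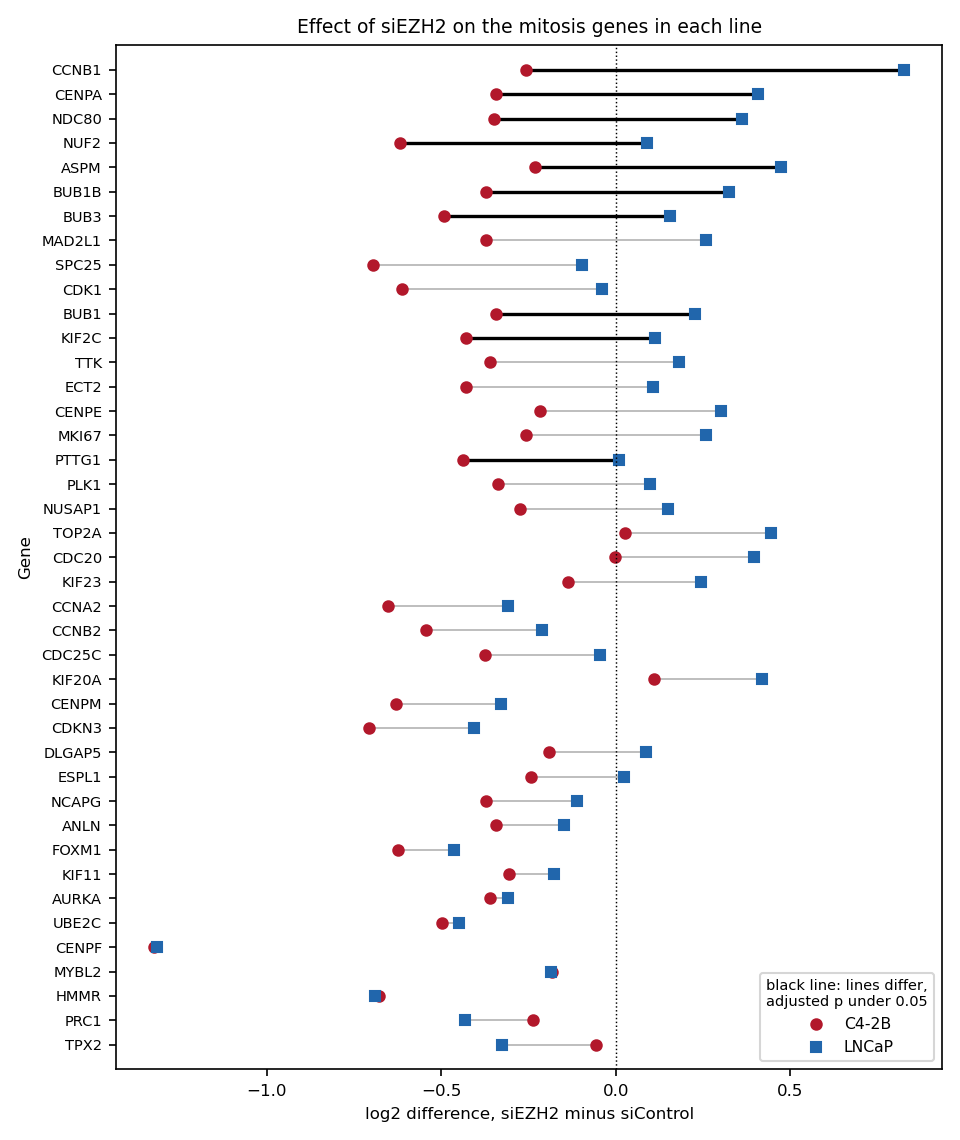
siEZH2 minus siControl log2 difference of each of 41 mitosis genes in C4-2B and in LNCaP, joined by a line that is black where the difference between lines was called by limma (10 genes). For these 10 genes, CCNB1 first among them at −1.08, the C4-2B value lies below the LNCaP value.

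With EPZ6438 in C4-2B, 25 mitosis genes fell and 1, ANLN, rose, where 15.2% of all genes were called, 7.08% lower and 8.15% higher. The median was −0.39 over the members and 0.004 over all genes, and 36 of 41 members were negative (6776 of all 13789 genes). By role, 9 of 10 kinesins and spindle genes fell, 3 of 4 genes of anaphase and separase, 5 of 7 kinetochore genes, 4 of 6 cyclins and CDK1 regulators, 2 of 3 chromosome structure genes and 2 of 7 checkpoint and kinase genes. Called decreases ran from −0.35 to −1.02, 9 of them at least 1.5-fold. The groups did not overlap for 26 of 41 members, against 28.9% of all genes.

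CENPA read 7.98, 7.87 and 7.87 with EPZ6438 in C4-2B, against 8.89, 8.87 and 9.00 with DMSO (−1.02 ± 0.11, limma adjusted p = 1.85e-07). CCNB2 read 9.05, 9.08 and 9.19, against 9.92, 9.97 and 9.94 (−0.84 ± 0.09, limma adjusted p = 4.36e-07). CCNB1 read 7.07, 7.05 and 7.19, against 7.91, 7.85 and 8.04 (−0.83 ± 0.12, limma adjusted p = 2.2e-05). Both B-type cyclins and the centromeric histone were thus lower on every EPZ6438 array than on every DMSO array. KIF2C, a kinesin that takes microtubules apart at kinetochores, read 7.04, 6.81 and 7.02, against 7.69, 7.82 and 7.79 (−0.81 ± 0.10, limma adjusted p = 2.65e-06). CENPE, a kinetochore kinesin, fell by 0.76 ± 0.12 (limma adjusted p = 9.75e-05), and the mitotic kinases AURKA and PLK1 by 0.73 ± 0.11 (4.93e-05) and 0.57 ± 0.11 (0.000702), all from limma. ANLN, the scaffold of the contractile ring, read 7.97, 8.10 and 7.94 with EPZ6438, against 7.68, 7.71 and 7.58 with DMSO (0.35 ± 0.10, limma adjusted p = 0.0173). That gene ran against the others without overlap between the groups, but was not called without DMSO replicate 3 (0.31) or without EPZ6438 replicate 2 (0.30).

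Of the 25 decreases, 16 held whichever 1 array was left out, and 9 did not (CENPF, CENPM, DLGAP5, KIF23, NCAPG, NUSAP1, TOP2A, TPX2 and UBE2C). A fit of the 6 arrays alone called 16 lower, and median centring called 0, with 8 members lower and 0 higher at an unadjusted p under 0.05. Centring on the detected probes called 23 lower. CENPA's other kept probe had a difference of −1.09, and all 13 other kept probes, of 11 called members, had the same sign as the probe used.

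With EPZ6438 in LNCaP, 10 mitosis genes fell and 0 rose, where 6.7% of all genes were called (2.68% lower, 4.02% higher). The median difference was −0.32, against 0.01 over all genes. At an unadjusted p under 0.05, 29 members were lower and 0 higher. The share of all genes at an unadjusted p was not counted, here or for other comparisons. Of the members' differences, 39 of 41 were negative, against 6625 of all 13789 genes. The largest called decrease was in CCNA2, the cyclin of S phase and early mitosis, which read 8.65, 8.54 and 8.17 with EPZ6438, against 9.12, 9.09 and 9.17 with DMSO (−0.67 ± 0.13, limma adjusted p = 0.0032). CENPA read 7.70, 7.46 and 7.35, against 8.11, 7.78 and 8.05 (−0.48 ± 0.11, limma adjusted p = 0.00752). NDC80 read 7.46, 7.28 and 7.16, against 7.80, 7.80 and 7.72 (−0.47 ± 0.11, limma adjusted p = 0.0102), and CENPM read 8.61, 8.41 and 8.31, against 8.85, 8.90 and 8.88 (−0.43 ± 0.10, limma adjusted p = 0.00969). Every EPZ6438 array was below every DMSO array for these 4 genes. The other genes called were CDC20, NUF2, KIF2C, NCAPG, BUB1B and CCNB2, with differences of −0.36 to −0.42. The groups did not overlap for 28 members, against 21.8% of all genes.

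The count in LNCaP with EPZ6438 depended on single arrays: it was 20 without EPZ6438 replicate 1, 1 without EPZ6438 replicate 3, and 4, 5 and 6 without DMSO replicate 1, 2 and 3. It was 0 with the 6 arrays fitted alone or with median centring (2 lower at an unadjusted p under 0.05), and CCNA2 alone kept its call without any 1 array. Centring on the detected probes gave 6 lower. Replicate 1 was the highest of the 3 EPZ6438 arrays for 25 members and replicate 3 the lowest for 25.

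Between the lines, the EPZ6438 effect differed for 5 members: it was more negative in C4-2B for CENPE (−0.58 ± 0.18, limma adjusted p = 0.0467), CENPA (−0.54 ± 0.15, 0.0293), CDC25C (−0.52 ± 0.15, 0.0399) and CCNB2 (−0.48 ± 0.13, 0.0256), and more positive for ANLN (0.67 ± 0.14, 0.00376). Of all genes, 6.69% differed (3.45% lower, 3.24% higher). The members' median was −0.09, against −0.00 over all genes. The 4 lower calls were each lost without at least 1 array, with 1 or 2 called without any of 9 arrays (all except LNCaP EPZ6438 replicate 3, C4-2B DMSO replicate 3 and C4-2B EPZ6438 replicate 2). ANLN kept its call in all of these fits, but with median centring none of the 5 was called, and without C4-2B DMSO replicate 3 the higher count was 2. Centring on the detected probes gave 1 higher and 0 lower. With EPZ6438, 7 genes fell in both lines (CENPA, NDC80, CENPM, CCNB2, KIF2C, CDC20 and NCAPG), 28% of the 25 in C4-2B and 70% of the 10 in LNCaP. The matching share of all genes was not counted.

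The effect of siEZH2 was set against that of EPZ6438 within each line, each relative to its own control. In LNCaP, siEZH2 minus EPZ6438 was positive for 14 members and negative for 1, against 8.85% and 9.69% of all genes (18.5% in all), with a members' median of 0.31 against 0.02. CCNB1 differed by 1.15 ± 0.17 (limma adjusted p = 3.05e-05), CENPA by 0.89 ± 0.15 (0.000144), NDC80 by 0.83 ± 0.15 (0.000414), CDC20 by 0.81 ± 0.14 (0.000151) and CENPF by −1.26 ± 0.20 (6.33e-05), all from limma. CCNB1 alone kept this call with median centring. CENPF overlapped between the EPZ6438 and DMSO arrays of LNCaP: 8.80, 8.95 and 8.90, against 8.97, 8.93 and 8.90 with DMSO (−0.05, limma adjusted p = 0.886). In C4-2B, 5 members were more positive with siEZH2 and 4 more negative, against 6.65% and 7.27% of all genes (13.9%), with a members' median of −0.03 against 0.02, whose sign turned with median centring (0.21). They included KIF20A (0.69 ± 0.18, limma adjusted p = 0.0108), CENPA (0.67 ± 0.15, 0.00302), CENPF (−0.76 ± 0.20, 0.0113), ANLN (−0.69 ± 0.14, 0.00127) and CDK1 (−0.66 ± 0.20, 0.0253). CENPA, KIF20A, ANLN and CENPF kept these calls without any 1 array, but with median centring none of the 9 was called. Centring on the detected probes called 2 higher and 4 lower. The higher count was 3 without C4-2B EPZ6438 replicate 1, siControl replicate 3 or siEZH2 replicate 1, and the lower count was 2 without DMSO replicate 1, DMSO replicate 2 or siEZH2 replicate 3. In C4-2B, 14 members fell with both agents, 56% of each list of 25, and the share of all genes that fell with both was not counted. CENPM, a centromere protein, was the only member that fell in all 4 treatment comparisons. Its calls with siEZH2 in LNCaP and with EPZ6438 in both lines were each lost without at least 1 array. By the probe used, ESPL1 (separase), KIF11, MAD2L1, MKI67 and MYBL2 were called in none. KIF11's other kept probe was lower with siEZH2 in C4-2B (−0.42, limma adjusted p = 0.0123 over all probes). It was also lower with EPZ6438 in LNCaP (−0.45, limma adjusted p = 0.0225 over all probes).

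FOXM1 and MYBL2 are the members that act on the promoters of the others. FOXM1 read 7.61, 8.09 and 7.67 with siEZH2 in C4-2B, against 8.63, 8.23 and 8.39 with siControl (−0.63 ± 0.14, limma adjusted p = 0.00249). In LNCaP it read 6.68, 6.59 and 6.89 with siEZH2, against 7.03, 7.23 and 7.30 with siControl (−0.46 ± 0.14, limma adjusted p = 0.0154). It fell in both lines without overlap, although in LNCaP the call was lost without siControl replicate 2 or 3 or siEZH2 replicate 1 or 2 (−0.40 to −0.45). With EPZ6438, FOXM1 read 7.36, 7.44 and 7.08, against 7.45, 7.27 and 7.29 with DMSO in C4-2B (−0.04, limma adjusted p = 0.902), and 7.29, 7.74 and 7.45, against 7.74, 7.68 and 7.93 in LNCaP (−0.29, limma adjusted p = 0.237). The groups overlapped in both lines. In C4-2B the 2 effects on FOXM1 differed by −0.59 (limma adjusted p = 0.0499), a call lost in most other fits. MYBL2, the MYB protein that joins MuvB, was dim: in C4-2B it averaged 4.62 ± 0.18 with siEZH2 and 4.80 ± 0.08 with siControl, and 4.66 ± 0.21 with EPZ6438 and 4.48 ± 0.20 with DMSO (SD, n = 3 each). In LNCaP it averaged 4.44 ± 0.08 with siEZH2 and 4.62 ± 0.20 with siControl, and 4.64 ± 0.26 with EPZ6438 and 4.61 ± 0.17 with DMSO. It was detected on all 3 arrays of both C4-2B siRNA groups, where the difference was −0.18 ± 0.14 and did not pass the test, and on 1 or 2 arrays of each other group, where a change was not detectable at this signal.

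Other genes of the pathway were counted from lists made for this comparison. Beside their counts stand the shares of all genes, which with siEZH2 were 10.1% higher and 8.5% lower in C4-2B and 14.3% and 12.5% in LNCaP, and with EPZ6438 8.15% and 7.08% in C4-2B and 4.02% and 2.68% in LNCaP. Of 77 further mitotic genes, 76 were measured. With siEZH2 in C4-2B, 36 fell and 0 rose (median −0.36), among them ARPP19, a phosphatase inhibitor that acts at mitotic entry (−1.53 ± 0.11), CENPK (−0.93) and SKA1 (−0.90), kinetochore proteins. In LNCaP, 19 fell and 9 rose with siEZH2 (median −0.08), ARPP19 again among those that fell (−1.14). With EPZ6438, 24 fell and 2 rose in C4-2B (median −0.26), and 22 fell and 0 rose in LNCaP (median −0.31), including FBXO5, an inhibitor of the anaphase-promoting complex (−0.68). Of 15 measured subunits of that complex (16 listed), 2 rose and 2 fell with siEZH2 in either line (13.3% each way, near the shares of all genes in LNCaP), and 2 fell in C4-2B and 1 in LNCaP with EPZ6438. Of 17 genes for MuvB, E2F and pocket proteins, 2 fell and 1 rose with siEZH2 in C4-2B, and 4 fell and 3 rose in LNCaP. With EPZ6438, 2 of them fell and 2 rose in C4-2B, where E2F2 rose by 0.53. In LNCaP, 3 of them fell and 0 rose with EPZ6438, and E2F2 there fell by 0.70. The 12 measured G1 and S phase regulators (13 listed) did not follow the mitotic genes under EPZ6438 in C4-2B: 6 rose and 0 fell (median 0.29), including CCND2 (0.58), CCND1 (0.50) and GMNN (0.49). In LNCaP 1 rose and 7 fell (median −0.33), including CDC25A (−0.65), CDT1 (−0.62) and GMNN (−0.47). With siEZH2, 3 rose and 5 fell in C4-2B, where SKP2, the adaptor that has p27 destroyed, fell by 1.29, and 2 rose and 3 fell in LNCaP, where SKP2 fell by 0.99. GMNN also fell with siEZH2 in C4-2B (−0.79). Of 6 measured cyclin-dependent kinase inhibitors (7 listed), 1 rose and 0 fell with siEZH2 in C4-2B, 1 rose and 1 fell in LNCaP, 1 rose and 1 fell with EPZ6438 in C4-2B, and 2 rose and 0 fell in LNCaP. CDKN1A (p21) rose by 0.62 with siEZH2 in C4-2B and by 0.56 with EPZ6438 in LNCaP, and CDKN1B (p27) fell by 0.80 while CDKN1C (p57) rose by 0.64 with EPZ6438 in C4-2B. CDKN2A (p16 and ARF) rose by 0.60 with siEZH2 and CDKN2B (p15) by 0.53 with EPZ6438 in LNCaP.

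The 2 kinds of control gave different answers on whether C4-2B expresses the mitosis genes more than LNCaP, and the siControl answer rests on the arrays labelled C4-2B whose luminal markers stood apart. In siControl cultures, 40 members were higher in C4-2B and 0 lower, where 46.9% of all genes were called (22.6% higher, 24.3% lower). The members' median was 1.21 against −0.01, and 29 members were at least 2-fold higher. In DMSO cultures, 6 were higher and 19 lower, where 39.9% of all genes were called (19.9% higher, 20% lower), with a median of −0.25 against −0.004. With median centring these counts were 33 and 0 in siControl cultures, and 1 and 6 in DMSO cultures. CENPA was higher in C4-2B under both controls, by 1.92 ± 0.11 in siControl cultures (limma adjusted p = 1.86e-13) and 0.94 ± 0.11 in DMSO cultures (1.09e-07). CCNA2 was lower in C4-2B in DMSO cultures (−1.03 ± 0.13, limma adjusted p = 9.61e-07), as were MAD2L1, a checkpoint protein (−1.0 ± 0.18, 0.0001), the spindle protein NUSAP1 (−0.83 ± 0.10, 2.21e-07) and CENPF (−0.68 ± 0.14, 0.000377). In siControl cultures the next largest increases were ECT2 (1.85 ± 0.13), KIF2C (1.84 ± 0.10), SPC25 (1.70 ± 0.18) and CDC20 (1.67 ± 0.10), the highest limma adjusted p of these 4 being 1.83e-08. The groups did not overlap for 40 members in siControl cultures (57.2% of all genes) and for 29 in DMSO cultures (48%).

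**Figure D5:**
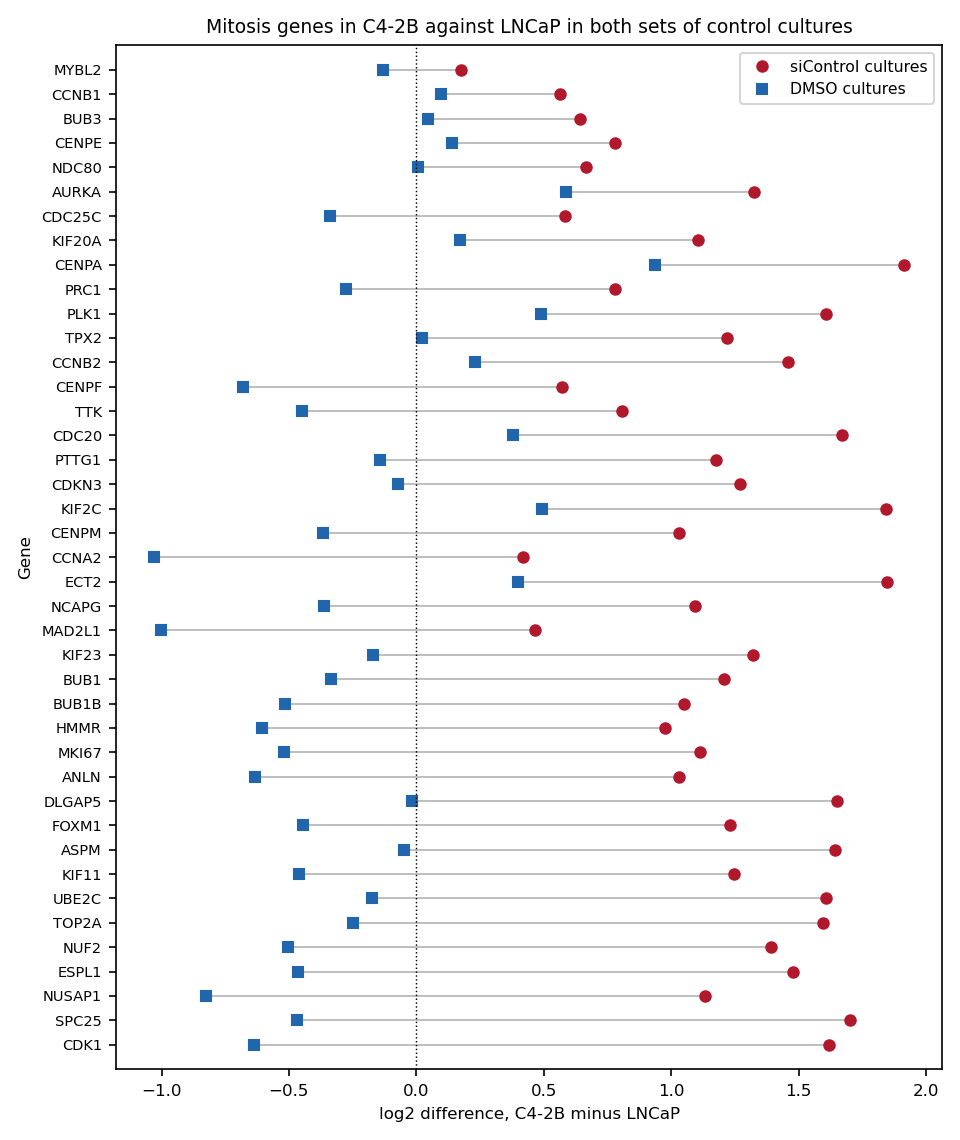
C4-2B minus LNCaP log2 difference of each of 41 mitosis genes in siControl cultures and in DMSO cultures. All 41 siControl values lie above 0 (median 1.21), and 28 of the 41 DMSO values lie below 0 (median −0.25).

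The siControl groups were set against the DMSO groups of the same line after these values had been seen. In C4-2B, 28 members were higher in siControl cultures and 0 lower, where 40.2% of all genes were called (19.1% higher, 21.1% lower), with a median of 0.52. CDK1 read 11.37, 11.51 and 11.33 with siControl, against 9.64, 9.65 and 10.24 with DMSO (1.56 ± 0.14, limma adjusted p = 2.85e-09), a gap without overlap. SPC25 (1.35 ± 0.18), BUB1B (1.20 ± 0.10), ANLN (1.17 ± 0.10) and FOXM1 (1.08 ± 0.14) followed. No overlap between the groups was seen for 31 of 41 members, against 46.6% of all genes. In LNCaP, 40 members were lower in siControl cultures and 0 higher, where 26.5% of all genes were called (13.8% lower, 12.7% higher), with a median of −0.82. No overlap was seen for 40 members, against 46.9% of all genes. The largest decreases were in TOP2A, the topoisomerase that untangles chromatids (−1.28 ± 0.11, limma adjusted p = 1.5e-08), ASPM (−1.28 ± 0.09, 9.64e-10) and NUSAP1 (−1.19 ± 0.10, 5.07e-09). CDK1 read 9.83, 9.69 and 9.84 with siControl in LNCaP, against 10.67, 10.45 and 10.33 with DMSO. The difference between lines was positive for 40 of 41 members and negative for 0 by the test (median 1.45), where 34.2% of all genes were called (15.9% higher, 18.3% lower), and was largest for CDK1 (2.26 ± 0.20, limma adjusted p = 3.14e-09). Of the 6 luminal prostate markers, 4 were lower and 0 higher with siControl than with DMSO in C4-2B, KLK3 by −2.95 and TMPRSS2 by −2.99, while 3 were higher and 0 lower in LNCaP, KLK3 by 1.02. Their part in the members' result was not tested. The siRNA and compound cultures are not said to be of 1 experiment, so transfection, the culture and the experiment cannot be told apart here, and with median centring 12 of the 40 decreases in LNCaP and 24 of the 28 increases in C4-2B were still called.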

How the data were processed

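RNA of 24 samples was measured on Illumina HT-12 bead arrays, 1 array a sample. The authors deposited a table of probe intensities with a detection p-value for each array, not normalised, and a processed table of probe intensities used here as an alternative; GenomeStudio is named per the submitters' processing notes, with no version. Detection p-values were used as deposited. Here, intensities were background-corrected with limma 3.58.1 in R 4.3.3 (nec, offset 16), taken to log2 and quantile-normalised. Probes with 1 gene, detected at p under 0.05 on at least 3 of 24 arrays, were kept, and the brightest kept probe stood for a gene. A linear model with 8 group means over all 24 arrays was fitted with limma for 13789 genes, with Benjamini-Hochberg adjustment over all of them, and calls were made below an adjusted p of 0.05. The fit was tested on simulated data. All 42 members may be named; arrays are given for up to 4 called members a treatment comparison and for FOXM1 and MYBL2, and the largest 5 called in other comparisons.

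The members and lists were chosen with earlier results of these data known. Same-numbered samples did not deviate together in every pair (correlations −0.284 to 0.320 over the 4 treatment comparisons), so no block was used. Alternatives were median centring, centring on detected probes, no background correction, the processed table, 2 other filters, the mean of kept probes, the replicate block, a fit of the compared groups alone, leaving out each array, and, added after seeing the data, quantile normalisation on the linear scale. Comparisons of siControl with DMSO cultures were also added after the values were seen.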

Additional observations from a re-analysis of the deposited data

Results flagged for a closer look

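These results differ between the 2 lines by a test of the difference itself (limma, adjusted over 13789 genes, with 3 arrays in each of the 4 groups of a test), given as C4-2B minus LNCaP. For siEZH2, the C4-2B side comes from the siRNA arrays whose luminal markers stood apart. The part of that culture in the differences was not tested. The siEZH2 effect differed by −1.08 for CCNB1 (adjusted p = 0.000277), −0.75 for CENPA (0.00337), −0.71 for NDC80 (0.00709), −0.708 for NUF2 (0.00868), −0.705 for ASPM (0.00198), −0.697 for BUB1B (0.00294), −0.647 for BUB3 (0.00561), −0.571 for BUB1 (0.00935), −0.544 for KIF2C (0.0244) and −0.448 for PTTG1 (0.0496). The 3 BUB proteins belong to the spindle checkpoint, and PTTG1 is securin, the inhibitor of separase. KIF2C and PTTG1 lost the call without at least 1 array, and the other 8 kept it. The line difference is given for the probe used only. With siEZH2 in C4-2B and LNCaP, other kept probes read close to each other for NUF2 (−0.43 and −0.40) and PTTG1 (−0.49 and −0.37). CENPA's read −0.28 and 0.12. BUB3's read −0.49 and 0.05, −0.75 and 0.26, and, on the dimmest, −0.08 and −0.24. With median centring none of the 10 was called, and centring on the detected probes called 9 members lower.

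The EPZ6438 effect differed by −0.579 for CENPE (limma adjusted p = 0.0467), −0.535 for CENPA (0.0293), −0.519 for CDC25C, the phosphatase that activates CDK1 (0.0399), −0.476 for CCNB2 (0.0256) and 0.666 for ANLN (0.00376). ANLN alone of these 5 kept the call whichever 1 array was left out, and with median centring none of the 5 was called.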

How the results depend on the processing

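Of 296 called results for single members over 13 comparisons, 116 stayed called with median centring, 266 with centring on detected probes, 256 with only the groups compared, and 284 to 296 with no background correction, the processed table, either other filter, the mean of kept probes, the linear-scale quantile or the replicate block; leaving out 1 array kept 2013 of 2268. The only sign change was AURKA with siEZH2 in LNCaP (0.0021). The cause was not tested.

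Median centring gave 3 higher and 1 lower for siEZH2 in LNCaP, 1 lower for siEZH2 in C4-2B, 0 lower for EPZ6438 in LNCaP, and 0 higher and 0 lower for EPZ6438 in C4-2B. For siEZH2 minus EPZ6438 it gave 1 and 0 in LNCaP, and in C4-2B 0 and 0 (3 higher and 0 lower at an unadjusted p under 0.05 by limma), for the siEZH2 effect between lines 0 lower, for the EPZ6438 effect 0 and 0 (0 and 0 unadjusted), for the lines in DMSO cultures 1 and 6, and for siControl minus DMSO in LNCaP 12 lower. Centring on detected probes gave 6 lower for EPZ6438 in LNCaP, 0 higher in C4-2B, 2 higher for siEZH2 minus EPZ6438 in C4-2B and 0 lower for the EPZ6438 effect between lines. Without background correction, 16 were lower with EPZ6438 in LNCaP and 7 lower for siEZH2 minus EPZ6438 in C4-2B. With only the groups compared, EPZ6438 gave 0 lower in LNCaP, 0 higher and 16 lower in C4-2B, siEZH2 minus EPZ6438 in C4-2B gave 2 higher and 1 lower, and the EPZ6438 effect 0 lower. The replicate block gave 2 lower for siEZH2 minus EPZ6438 in LNCaP, and other counts of members moved by less than 1.5 times with the block.

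Leaving out 1 array gave 6 to 8 higher and 5 to 6 lower for siEZH2 in LNCaP, 16 to 26 lower in C4-2B, 1 to 20 lower for EPZ6438 in LNCaP, and 0 to 1 higher and 17 to 25 lower in C4-2B. It gave 10 to 14 higher and 1 lower for siEZH2 minus EPZ6438 in LNCaP, 3 to 5 and 2 to 4 in C4-2B, 8 to 11 lower for the siEZH2 effect, 1 to 2 higher and 1 to 5 lower for the EPZ6438 effect, 5 to 6 and 16 to 19 for the lines in DMSO cultures and 38 to 40 higher in siControl cultures. For siControl minus DMSO it gave 39 to 40 lower in LNCaP, 26 to 29 higher and 0 to 1 lower in C4-2B (1 without DMSO replicate 3) and 39 to 40 for their difference.

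The count over all genes with siEZH2 was 3697 in LNCaP and 2566 in C4-2B, against 1689 and 1047 with median centring, and with EPZ6438 924 and 2100, against 28 and 265. With only the groups compared, EPZ6438 called 56 in LNCaP and 1361 in C4-2B. Dim probes limit MYBL2 and NCAPH.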
